A study of Mus musculus with 6 samples.

Results

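Translation factors are the soluble proteins that work with the ribosome at each step of protein synthesis. In this array dataset they comprised 62 of the 19057 genes with a symbol on the platform, measured by 127 of its 45281 probes. Members were chosen by their platform symbol: names starting with Eif1 to Eif6 or with Eef1 to Eef2, together with Etf1, Gspt1, Gspt2, Abce1, Pelo and Hbs1l, without the eIF2 kinases (Eif2ak) and the eIF4E-binding proteins (Eif4ebp). The symbols alone decide membership and the role groups below, whose genes need not share a function. The rule was written with earlier results of these data known. All 62 genes were found again under the same symbol through their gene identifier in the RefSeq gene table.

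The samples were CD133-positive and CD133-negative cells of KPC001, a pancreatic cancer cell line from a KPC mouse, with 3 arrays of each population and no treatment in either. Both populations share the genetic background of the line, and both were grown in high-glucose DMEM with serum. CD133 is a surface glycoprotein by which tumour-initiating cells are often sorted. RNA of each sample was hybridised in 1 colour to an Illumina bead array, on which each probe is read as the mean intensity of many beads. Nothing in the labels tells separate cultures from repeat preparations, so p-values measure the spread between these arrays, which may be technical.

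Initiation begins when eIF2 carries the initiator tRNA to the small ribosomal subunit, where eIF3, eIF1 and eIF1A keep the subunit open for scanning, while the eIF4 proteins bind the mRNA cap and unwind the leader. eIF5 and eIF5B complete start codon choice and subunit joining. The eEF1 complex then delivers aminoacyl-tRNA and eEF2 moves the ribosome along, until eRF1 and eRF3 release the finished chain and ABCE1 splits the ribosome for another round. Growth factor and nutrient signals in tumour cells act on several of these steps, most of all on eIF4E and eIF2.

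Between 17123 and 18057 probes were detected on an array at a detection p under 0.05, with a median of 37 to 41 beads per probe. Of 7 listed epithelial marker genes on the platform, 6 were tested. These were Krt7, Krt8, Krt18, Krt19, Cdh1 and Sox9, each detected on all 6 arrays. The remaining listed gene had no probe that passed the detection filter. The summed deposited intensity of the epithelial marker list was 23114 to 25503 on CD133-positive arrays and 27140 to 30609 on CD133-negative arrays. After normalisation 0 of its 8 tested probes passed by limma, and its part in the results below was not tested. All marker sums given here were taken before normalisation, so the brightness of each array enters them. Leukocyte markers summed to 1438 to 1492 on CD133-positive and 1494 to 1545 on CD133-negative arrays over 13 probes, none of them detected on every array. Of the fibroblast list Acta2 and Col1a1 were detected on all arrays, and that list summed to 1837 to 1968 on CD133-positive and 1969 to 2073 on CD133-negative arrays. Of the acinar and endocrine list Cela1 was detected on all arrays. That list summed to 607 to 674 on CD133-positive and 650 to 677 on CD133-negative arrays. No endothelial list gene was detected on all arrays. The endothelial list summed to 1023 to 1074 on CD133-positive and 1055 to 1095 on CD133-negative arrays. None of the 3 probes of Prom1, the gene of CD133, passed the detection filter, so it does not check the labels. In bulk RNA, fewer cells of a type and less RNA per cell cannot be told apart.

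Promoter sequence is shown for Eef2, where all 3 probes were higher in CD133-positive cells, and for Abce1, the member that fell. Each stretch runs from 120 bases before to 15 bases after the RefSeq transcript start in build GRCm38.p6, on the gene's own strand. Eef2 lies on the plus strand at chr10:81176511-81176645 and Abce1 on the minus strand at chr8:79711726-79711860. Capitals mark CACGTG, the E-box that Myc family proteins can bind, and TGACGTCA, the element that CREB and ATF family proteins can bind.
Eef2: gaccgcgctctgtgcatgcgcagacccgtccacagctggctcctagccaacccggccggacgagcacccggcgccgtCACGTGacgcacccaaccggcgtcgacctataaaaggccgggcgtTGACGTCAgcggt
Abce1: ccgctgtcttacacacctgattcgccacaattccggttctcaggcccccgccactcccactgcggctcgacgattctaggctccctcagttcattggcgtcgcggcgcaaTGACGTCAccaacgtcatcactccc

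The TGACGTCA of Abce1 began at position -10 relative to the transcript start, and that of Eef2 at position 3, while the CACGTG of Eef2 began at position -43. Both motifs read the same on either strand and did not overlap each other. In windows from 250 bases before to 50 after a start, TGACGTCA was found in 1.79% of all 32851 windows and in 2 of the 61 windows of translation factors (3.28%), those of Eef2 and Abce1. In all, 47 translation factor genes had a window. The differences of Eef2 and Abce1 between the populations had opposite signs. CACGTG was found in 7.15% of all windows and in 14 of the 61 windows of translation factors (23%), which belonged to 12 genes. Base composition was not matched in these shares. The 12 were Eef1aknmt, Eef2, Eef2k, Eif1b, Eif3a, Eif3f, Eif3k, Eif4a1, Eif4e, Eif4h, Eif5a and Eif5a2. A motif match is a description of these letters and says nothing about binding.

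Most translation factors were detected. Of the 127 probes, 91 were detected on all 6 arrays (71.7%, against 32.0% of all platform probes), 7 on 3 to 5 arrays, 6 on 1 or 2 and 23 on none. The 98 probes detected on at least 3 of 6 arrays were tested, and they stood for 53 of the 62 genes. Probes designed on RefSeq mRNAs passed this filter in 93 of 115 cases and those designed on AK-numbered cDNA accessions in 4 of 11. A probe that was not detected does not show that its gene is silent, since many genes had another probe that was.

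The 7 genes with no detection on any array were Eif2s3x-ps1, Eif3e, Eif3m, Eif4e1b, Eif4g3, Eef1a2 and Eif5a2. Eef1a2 is the eEF1A isoform of muscle and neurons and Eif4e1b an eIF4E form of oocytes, and each was read by 3 probes. Eif3e and Eif3m encode subunits of the eIF3 complex, of which 10 other genes were tested, and each had a single probe on the array. Eif1ax and Eef1akmt2 were each detected on 1 array and were not tested.

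The comparison asked which genes change with CD133 status within the line. Among translation factors, Eif4g2 rose on 1 of 3 probes and Abce1 fell on its single tested probe in CD133-positive cells, and no other probe passed. Eef2 was higher in CD133-positive cells on all 3 of its probes by about the same amount, without passing the adjusted threshold. Eef1a1, Eef1g, Eif4a1, Eif3f and Eif4h, core parts of the machinery, each had a probe of strong signal with a difference within 0.07 of 0. Another probe of Eif4a1 gave 0.34 and a dim one of Eef1a1 gave 0.24, while the remaining probes of Eef1a1 and Eif3f stayed within 0.07. Intensities were background-corrected, quantile normalised and taken to log2, and limma's moderated test was run on 17219 probes. A probe passed at an adjusted p under 0.05 (Benjamini-Hochberg over all of them).

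In all, 2 of 98 translation factor probes passed, 1 higher and 1 lower, where 1.53% of all tested probes passed, 1.25% higher and 0.279% lower. Without background correction 8 translation factor probes passed as higher and 3 as lower (11.2% of them), where 6.45% of all tested probes passed, 748 higher and 362 lower. From the authors' intensities it was 8 and 2 (10.2%), where 6.72% of all tested probes passed, 836 higher and 321 lower. At an unadjusted p under 0.05, 10 probes were higher and 8 lower, beside 9.08% and 7.52% of all tested probes. The groups did not overlap for 29 of 98 probes (15 higher, 14 lower), where this held for 23.1% of all tested probes. Differences lay between -0.50 and 0.61 on the log2 scale, with 45 probes above 0 and 53 below. Their median was -0.0095, beside -0.016 over all tested probes. A change of at least 1.5-fold was seen in 1 of the 98, beside 323 of all 17219 tested probes. In the reported setting the calls and the median of translation factors thus sat close to those of all tested probes. The share without overlap was larger, at 29.6% beside 23.1%. Without background correction and from the authors' intensities, a larger share of them passed than of all tested probes.

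**Figure D1:**
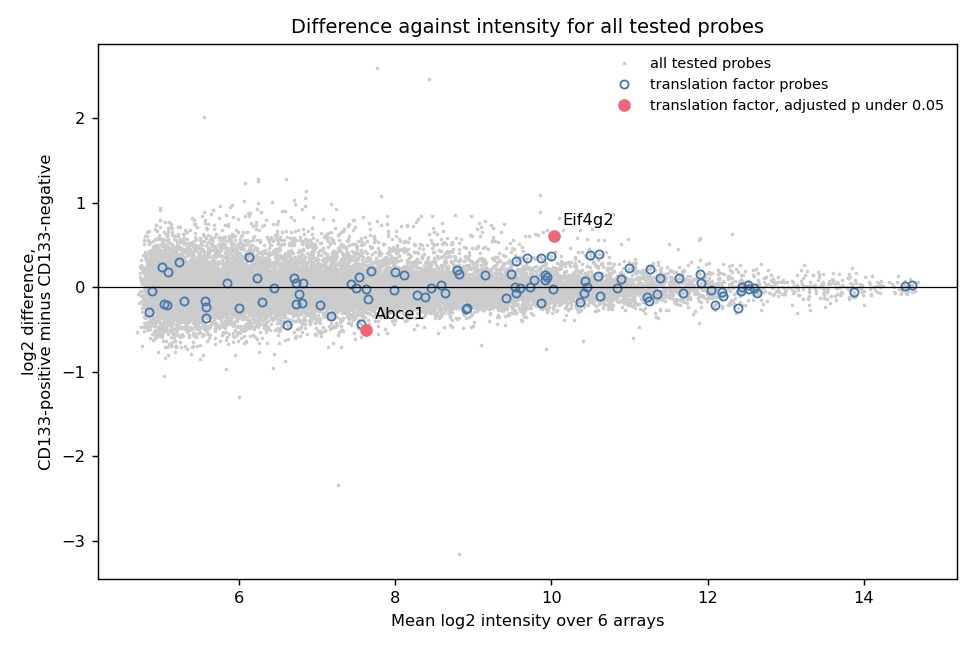
Log2 difference (CD133-positive minus CD133-negative, y axis) against mean log2 intensity over 6 arrays (x axis) for the 17219 tested probes (grey), with the 98 translation factor probes circled in blue and the 2 that passed filled in red. The circles lie between -0.50 and 0.61, within the grey cloud at their intensity, and spread over its whole range of intensities.

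Factors of start site selection and subunit joining gave no call. Of 11 tested probes of 6 genes, 0 passed by limma and 0 had an unadjusted p under 0.05, with 3 probes above 0 and 8 below. Eif5b, the GTPase of subunit joining, had 6.18, 6.30 and 6.16 log2 intensity on the CD133-positive arrays, against 6.36, 6.43 and 6.37 on the CD133-negative arrays. The groups did not overlap, yet the difference was only -0.17 ± 0.08 (SE, adjusted p = 0.360 by limma). Eif1a, which promotes scanning, gave -0.17 ± 0.09, and Eif6, which keeps free large subunits from joining, gave -0.16 ± 0.09 and -0.20 ± 0.24 on its 2 probes.

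Eif5, which activates the GTPase of eIF2, was strongly detected. On ILMN_3151345 its mean log2 intensity was 12.13 ± 0.07 in CD133-positive and 12.24 ± 0.07 in CD133-negative cells (SD, n = 3 each). The difference was -0.11 ± 0.09 on that probe, 0.05 ± 0.10 on another of the same transcript record and 0.09 ± 0.08 on a probe of a second record. The remaining tested genes grouped with this step by their symbol, Eif1ad and Eif1b, lay between -0.09 and 0.09.

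The eIF2 and eIF2B genes went both ways. eIF2 is the carrier of initiator tRNA and eIF2B the exchange factor that recharges it with GTP. Of 15 tested probes of 10 genes, 0 passed by limma, 8 were above 0 and 7 below, and 1 had an unadjusted p under 0.05. That probe belonged to Eif2b4, the delta subunit of eIF2B, with 8.85, 8.88 and 8.64 log2 intensity in CD133-positive cells, against 8.99, 9.07 and 9.07 in CD133-negative cells. The difference was -0.25 ± 0.10 (SE, adjusted p = 0.245 by limma), with no overlap between the groups.

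Another eIF2B subunit, Eif2b1 (alpha), lay on the other side on both of its probes, with 0.20 ± 0.10 and 0.18 ± 0.10. Eif2b2, Eif2b3 and Eif2b5 lay between -0.08 and 0.16. Among the eIF2 subunits, Eif2s2 (beta) had 0.19 ± 0.09 and 0.16 ± 0.10 on its 2 probes, and Eif2s3x (gamma, X-linked) 0.15 ± 0.08. Eif2s3y, the Y-linked copy of the gamma subunit, was detected on all 6 arrays by 1 of its 2 probes and had -0.26 ± 0.12 (adjusted p = 0.339 by limma). The X and Y copies thus lay on opposite sides of 0, and the difference between them was not tested. Eif2a, an alternative initiator tRNA binder, had a difference of -0.0065 ± 0.09 on its single probe. Eif2d gave 0.02 ± 0.11 and -0.08 ± 0.10.

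The eIF3 complex, the largest of the initiation factors, gave 0 calls by limma among 18 tested probes of 10 genes. At an unadjusted p under 0.05 there was 1 higher and 1 lower probe. Eif3c, a core subunit, had 9.62, 9.69 and 9.80 log2 intensity on the CD133-positive arrays, against 9.47, 9.35 and 9.36 on the CD133-negative arrays, on ILMN_2615741. All CD133-positive values were above all CD133-negative ones, by 0.31 ± 0.09 (SE, adjusted p = 0.141 by limma), while the other probe of Eif3c gave -0.12 ± 0.09.

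Eif3d, which can itself bind the cap of some mRNAs, had 11.99, 12.08 and 11.90 in CD133-positive cells, against 12.19, 12.17 and 12.25 in CD133-negative cells. Its groups did not overlap either, with a difference of -0.21 ± 0.09 (adjusted p = 0.277 by limma). Eif3k gave -0.18 ± 0.09 and 0.11 ± 0.16 on its 2 probes. Eif3f, another subunit, averaged 12.59 ± 0.07 (SD, n = 3) in CD133-positive and 12.60 ± 0.12 in CD133-negative cells on ILMN_2924030, and its probes gave -0.0077 ± 0.09 and -0.05 ± 0.09. The remaining genes, Eif3a, Eif3b, Eif3h, Eif3i, Eif3j1 and Eif3l, lay between -0.21 and 0.17.

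The genes grouped as eIF4 by their symbol held the largest rise of the family. Eif4g2 encodes DAP5, an eIF4G relative that lacks the eIF4E-binding part and supports initiation on some mRNAs without eIF4E. On ILMN_1213167 it had 10.27, 10.38 and 10.36 log2 intensity in CD133-positive cells, against 9.62, 9.80 and 9.76 in CD133-negative cells. The groups were well apart, and the rise was 0.61 ± 0.09 on the log2 scale, a 1.53-fold change (SE, adjusted p = 0.0294 by limma, n = 3 per group).

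The other probes of Eif4g2 did not follow this rise. On ILMN_2458030 the values were 9.13, 9.29 and 9.25 in CD133-positive cells, against 9.04, 9.02 and 9.18 in CD133-negative cells, which overlapped, with 0.14 ± 0.09. On ILMN_2625167 they were 6.08, 6.74 and 6.38 in CD133-positive cells, against 6.85, 6.74 and 6.93 in CD133-negative cells, which were only just apart, with -0.44 ± 0.16 (unadjusted p = 0.0277, adjusted p = 0.233 by limma). This difference was -0.29 without CD133-positive replicate 1 and -0.20 with the authors' intensities. All 3 probes carry the same RefSeq accession in the platform annotation, and 31 to 53 beads stood behind each value. With the 3 probes averaged, Eif4g2 had 0.10 and did not pass (adjusted p = 0.655 by limma).

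**Figure D2:**
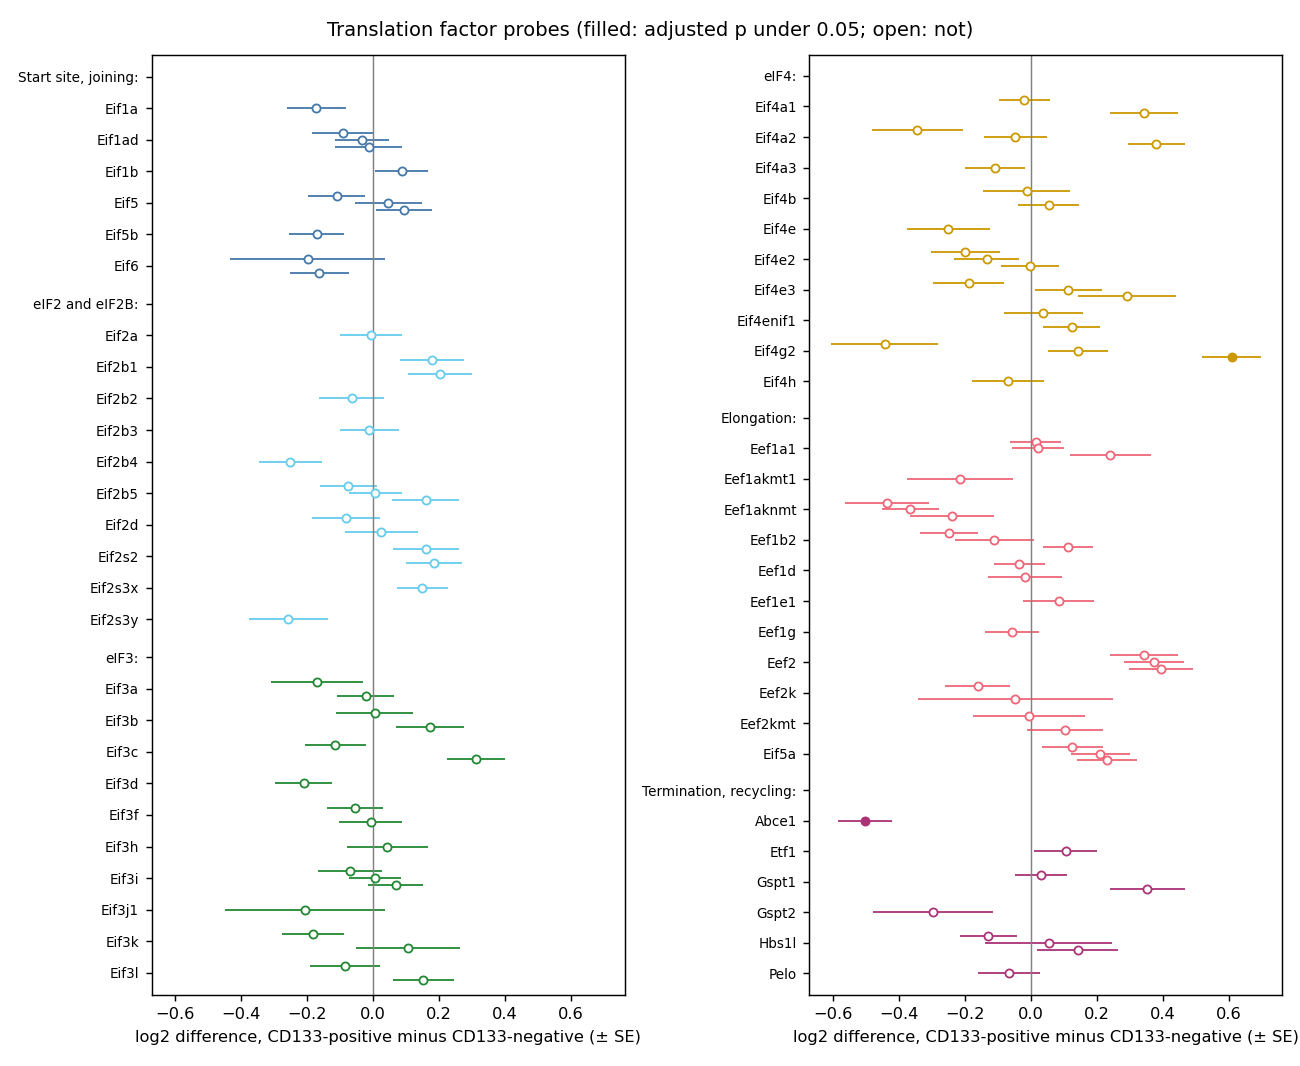
Log2 difference (x axis, CD133-positive minus CD133-negative, ± SE of the limma fit, n = 3 arrays per group) of each of the 98 tested probes, 1 row per gene, grouped by role, with filled points at an adjusted p under 0.05. Eif4g2 at 0.61 and Abce1 at -0.50 are the filled points. The probes of Eef2 lie together near 0.4, while those of Eif4g2 and Eif4a2 lie on both sides of 0.

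Eif4a2, a paralog of the RNA helicase eIF4A, showed the same kind of split. ILMN_2702215 had 10.59, 10.71 and 10.76 log2 intensity in CD133-positive cells, against 10.27, 10.27 and 10.38 in CD133-negative cells, a difference of 0.38 ± 0.09 (SE, adjusted p = 0.0870 by limma). ILMN_2449506 had 6.83, 6.93 and 7.27 in CD133-positive cells, against 7.53, 7.26 and 7.28 in CD133-negative cells, a difference of -0.35 ± 0.14 (adjusted p = 0.268 by limma). The first pair of groups did not overlap and the other did, narrowly. The other tested probe of Eif4a2, ILMN_2976829, gave -0.05 ± 0.10.

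Probes of Eif4a1, the main eIF4A helicase, also differed. ILMN_2618481 had 9.98, 9.94 and 10.19 in CD133-positive cells, against 9.59, 9.70 and 9.78 in CD133-negative cells, with no overlap and a difference of 0.34 ± 0.10 (adjusted p = 0.158 by limma). The other probe, ILMN_2959480, gave -0.02 ± 0.08. Such splits were not limited to these genes: of 31 translation factor genes with several tested probes, 16 had all probes on the same side of 0 (51.6%), against 45.6% of 3616 such genes on the array. Probes of opposite sign, each at an unadjusted p under 0.05, occurred in 2 of the 31 genes, Eif4g2 and Eif4a2, and in 70 of the 3616.

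Eif4h, a cofactor of the helicase, averaged 12.60 ± 0.08 (SD, n = 3) in CD133-positive and 12.67 ± 0.17 in CD133-negative cells, a difference of -0.07 ± 0.11 (SE). Eif4e, the cap-binding protein itself, had 5.88 ± 0.21 (SD) log2 intensity in CD133-positive and 6.13 ± 0.11 in CD133-negative cells (n = 3 each), with -0.25 ± 0.13 and overlapping groups (adjusted p = 0.370 by limma). The remaining eIF4 genes, Eif4a3, Eif4b, Eif4e2, Eif4e3 and Eif4enif1, lay between -0.20 and 0.29. In all, 1 of 21 tested eIF4 probes passed, beside 1.53% of all tested probes, and 9 were above 0 and 12 below. A single call in so small a group does not describe the group.

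Among elongation factors Eef2 had similar differences on all of its probes. Of 24 tested probes of 11 genes 0 passed by limma. At an unadjusted p under 0.05 there were 5 higher (20.8%) and 3 lower (12.5%), beside 9.08% and 7.52% of all tested probes, and the groups did not overlap for 10 (41.7%, beside 23.1%). These probes came from 4 genes, Eef2, Eif5a, Eef1aknmt and Eef1b2, and probes of 1 gene read the same RNA. Eef2 encodes the GTPase that translocates the ribosome by a codon. ILMN_1239110 had 10.84, 10.89 and 10.68 log2 intensity in CD133-positive cells, against 10.30, 10.50 and 10.43 in CD133-negative cells, a difference of 0.40 ± 0.10 (SE, adjusted p = 0.102 by limma).

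The other Eef2 probes gave nearly the same difference. ILMN_2589181 had 10.29, 10.20 and 10.05 in CD133-positive cells, against 9.85, 9.80 and 9.78 in CD133-negative cells, with 0.37 ± 0.09 (adjusted p = 0.101 by limma). ILMN_1252294 had 9.89, 9.93 and 9.76 in CD133-positive cells, against 9.38, 9.50 and 9.66 in CD133-negative cells, with 0.34 ± 0.10 (adjusted p = 0.158 by limma). On each of the 3 probes every CD133-positive array was above every CD133-negative array. The 3 probes read the same RNA on the same arrays and are not replicates of one another. Eef2 passed on all 3 probes without background correction, with the authors' intensities and when the fit used a robust variance trend. In these settings 6.36% to 6.72% of all tested probes passed. Eef2 passed on 0 of 3 whenever 1 array was left out, where at most 0.0813% of all tested probes passed. With a median shift in place of quantile normalisation its probes had 0.17 to 0.23.

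Eif5a, the hypusine-carrying factor that helps the ribosome form difficult peptide bonds, was also above 0 on all 3 probes, with 0.23 ± 0.09, 0.21 ± 0.09 and 0.13 ± 0.09. On ILMN_1251631 it had 11.03, 11.15 and 11.14 in CD133-positive cells, against 10.80, 10.84 and 10.99 in CD133-negative cells, which did not overlap (adjusted p = 0.259 by limma). With the median shift, which moved the median of all tested probes to -0.13, ILMN_2686044 of Eif5a had -0.037.

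**Figure D3:**
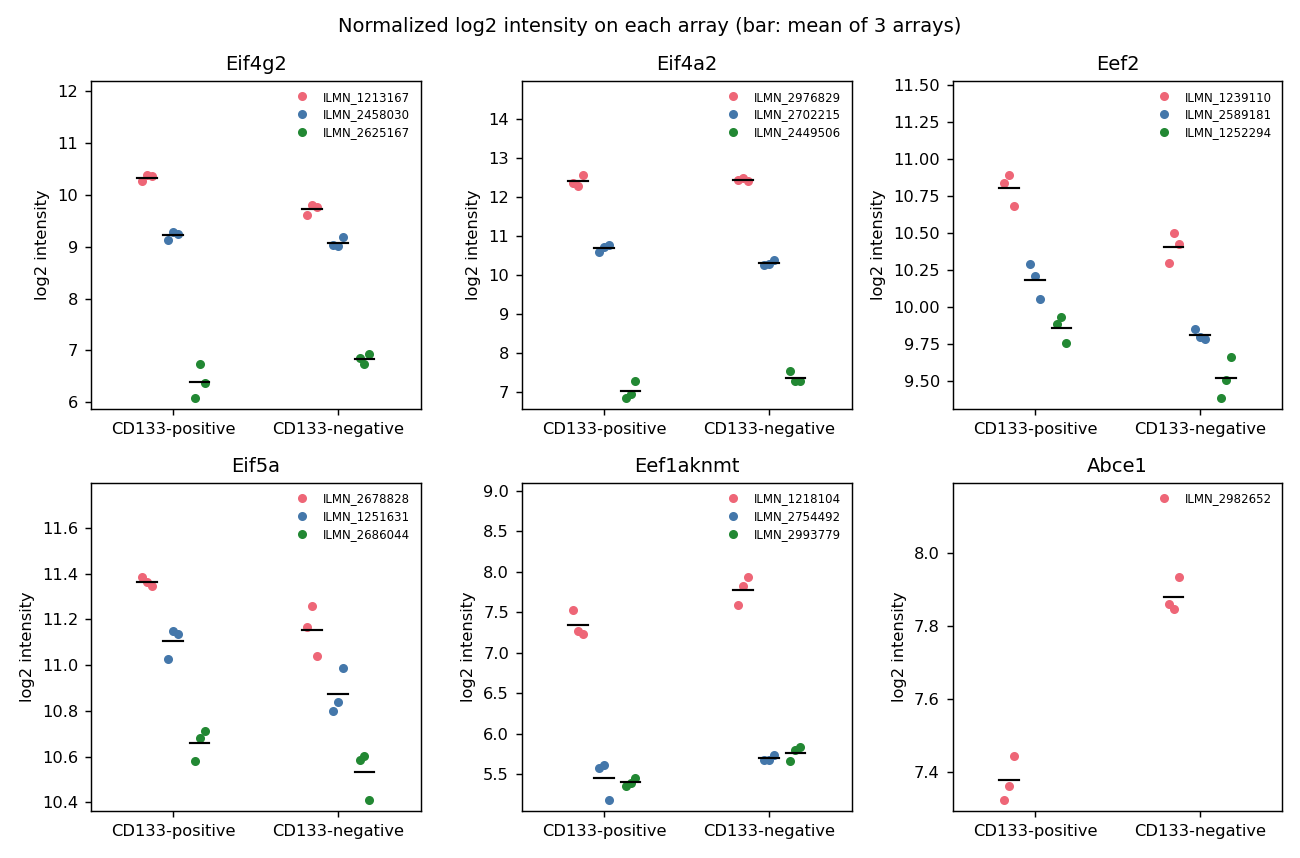
Normalised log2 intensity (y axis) on each of the 3 CD133-positive and 3 CD133-negative arrays for every tested probe of Eif4g2, Eif4a2, Eef2, Eif5a, Eef1aknmt and Abce1, with 1 colour per probe and a bar at each group mean. All CD133-positive points of Eef2 lie above the CD133-negative points of the same probe, and those of Abce1 and Eef1aknmt lie below.

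Probes of the eEF1A delivery arm went both ways, and their differences were not tested against those of Eef2. Eef1a1, the main eEF1A, had 14.66, 14.57 and 14.64 log2 intensity in CD133-positive cells, against 14.61, 14.57 and 14.63 in CD133-negative cells on ILMN_2588052. The difference was 0.02 ± 0.08 there and 0.01 ± 0.08 on ILMN_1377920, and a dim probe near background gave 0.24 ± 0.12. Eef1b2, the exchange factor subunit of eEF1, had -0.25 ± 0.09 on ILMN_2708644 (adjusted p = 0.216 by limma), and 0.11 ± 0.08 and -0.11 ± 0.12 on the others. The groups did not overlap on ILMN_2708644, and on ILMN_1229042, at 0.11, they were apart in the opposite direction. Eef1d and Eef1g, and Eef1e1, which is grouped here by its symbol alone, lay between -0.06 and 0.08.

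Enzymes that modify the elongation factors fell under the same symbol rule. Eef1aknmt, a methyltransferase of eEF1A, was below 0 on all 3 tested probes. On ILMN_1218104 it had 7.53, 7.27 and 7.23 log2 intensity in CD133-positive cells, against 7.59, 7.82 and 7.94 in CD133-negative cells, with -0.44 ± 0.13 (adjusted p = 0.149 by limma). ILMN_2993779 gave -0.37 ± 0.09 (adjusted p = 0.0948 by limma) and ILMN_2754492 -0.24 ± 0.13, again with no overlap between the groups. Without background correction the differences were -0.29 on ILMN_1218104, -0.12 on ILMN_2993779 and -0.076 on ILMN_2754492. The difference on ILMN_2754492 was -0.10 without CD133-positive replicate 3. Eef1akmt1, another eEF1A methyltransferase, had -0.21 ± 0.16. Eef2k, the kinase that inhibits eEF2, gave -0.16 ± 0.10 and -0.05 ± 0.30, and Eef2kmt, which methylates eEF2, 0.10 ± 0.11 and -0.0055 ± 0.17.

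Among the factors that end translation and free the ribosome, Abce1 fell. It encodes an iron-sulfur ATPase that splits the ribosome into its subunits after termination or rescue. On ILMN_2982652 it had 7.32, 7.36 and 7.44 log2 intensity in CD133-positive cells, against 7.86, 7.85 and 7.93 in CD133-negative cells. The groups were well apart, with a difference of -0.50 ± 0.08, or 0.705-fold (SE, adjusted p = 0.0379 by limma, n = 3 per group). The other 2 probes of Abce1 were not detected on any array, so the fall rests on 1 probe with 31 to 43 beads per array.

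No probe of the other genes of this step passed, and their differences were not tested against that of Abce1. Etf1, the release factor eRF1, had 0.10 ± 0.10 on its probe. Gspt1, the eRF3 GTPase that works with eRF1, had 12.53 ± 0.04 (SD) in CD133-positive and 12.50 ± 0.05 in CD133-negative cells on ILMN_2791578, with 0.03 ± 0.08 (SE). On ILMN_1216700, designed on a cDNA clone, it had 6.33, 6.19 and 6.42 in CD133-positive cells, against 6.03, 6.09 and 5.77 in CD133-negative cells, with 0.35 ± 0.11 (adjusted p = 0.185 by limma), and with 0.15 when the background was not corrected. Gspt2, the second eRF3 gene, was detected on 3 of 6 arrays with -0.30 ± 0.18. Gspt2 had -0.15 without CD133-negative replicate 1, -0.46 without CD133-negative replicate 3 and -0.094 when the background was not corrected. Pelo and Hbs1l, the pair that rescues stalled ribosomes, had -0.07 ± 0.09 for Pelo and values between -0.13 and 0.14 on 3 probes of Hbs1l. In total 1 of 9 probes passed, beside 1.53% of all tested probes, and 5 were above 0 and 4 below. This single call does not describe the group either.

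Both calls rested on the full set of arrays. Without any 1 array 0 of 98 translation factor probes passed by limma, where only 0.0407% to 0.0813% of all 17219 tested probes passed. At an unadjusted p under 0.05 there were 13 to 17 translation factor probes, beside 2421 to 2650 of all tested probes. The difference of Eif4g2 was then 0.55 to 0.65 (adjusted p = 0.0868 to 0.108) and that of Abce1 -0.54 to -0.48 (adjusted p = 0.0825 to 0.120). Over the other settings on the same probe Eif4g2 had 0.44 at the smallest, with the median shift, and Abce1 -0.33, with the authors' intensities.

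**Figure D4:**
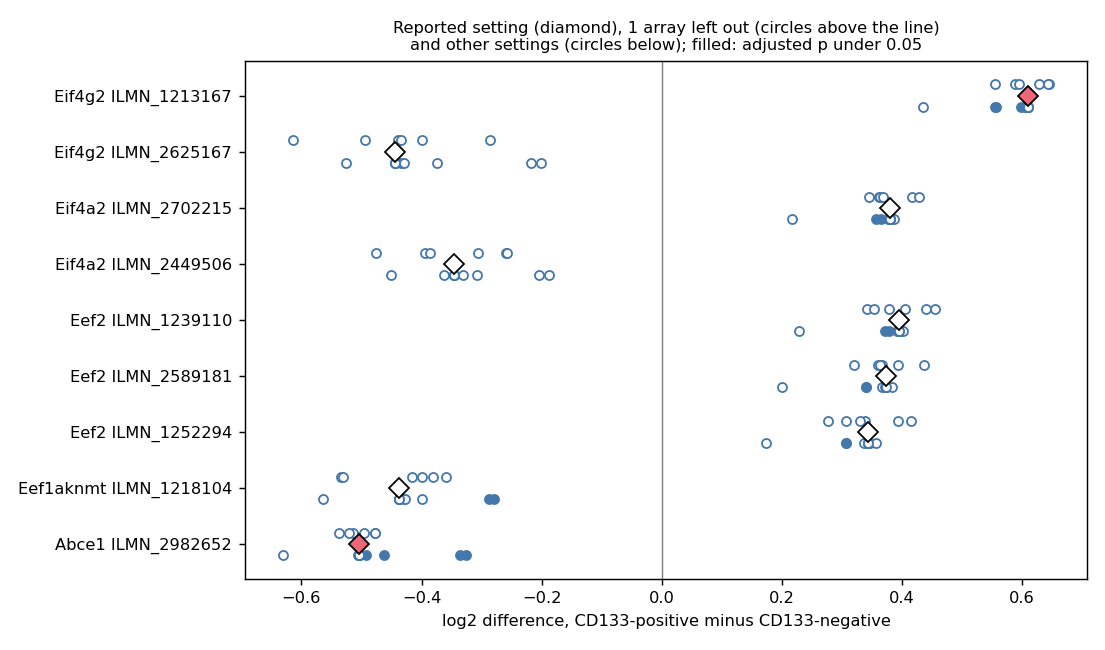
Log2 difference (x axis) of 9 probes in the reported setting (diamond), with 1 array left out (circles above) and in the other settings (circles below), filled at an adjusted p under 0.05. The setting with the probes of a gene averaged, where Eif4a2 changed sign from ILMN_2702215, is not drawn. Each of these probes kept its direction in all settings shown, and Eif4g2 and Abce1 have only open circles where 1 array was left out.

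Regulators of translation that are no members were counted apart. Of 30 listed genes 23 were tested by 36 probes, and 1 probe passed, beside 1.53% of all tested probes. At an unadjusted p under 0.05, 5 were higher and 3 lower, beside 9.08% and 7.52% of all tested probes. Their median difference was -0.05. The probe that passed belonged to Pabpc1, the poly(A)-binding protein that joins the mRNA tail to eIF4G, with a rise of 0.90 ± 0.12 (SE, adjusted p = 0.0229 by limma). Its other probes gave 0.44 ± 0.11 and 0.06 ± 0.10. Mtor, the growth kinase upstream of the eIF4E-binding proteins, had -0.54 ± 0.10 on 1 probe (adjusted p = 0.0557 by limma) and -0.13 ± 0.10 on the other. Paip2b, an inhibitor of poly(A)-binding protein, had 0.47 ± 0.10 and -0.0099 ± 0.08, and Eif4ebp2, an inhibitor of eIF4E, -0.32 ± 0.08 (adjusted p = 0.0998 by limma). Mtor, Paip2b and Eif4ebp2 are given as values with no call.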

How the data were processed

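Per the file headers, the deposited table gave 45281 probes on each of 6 arrays, with their linear intensity (mean over beads), its standard error, the bead number and a detection p-value. Steps in the p-value column correspond to 936 negative controls. Intensities that the authors had processed were also deposited, with a method not given in the sources used here. RNA was purified with Trizol and a column and labelled as biotinylated cRNA, per the labels' protocols.

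Groups and replicate numbers came from the sample titles, with an unnumbered title taken as replicate 1. In limma 3.58.1 (R 4.3.3) the deposited intensities underwent neqc: normal-exponential background correction, with negative controls worked out from detection p-values and an offset of 16, then quantile normalisation and log2. The fit by lmFit and eBayes covered probes detected (p under 0.05) on 3 or more arrays, two-sided, without covariates, on all 6 arrays, and adjusted over all 17219 by Benjamini-Hochberg. The fit was tested on simulated data with planted changes larger than any translation factor difference. That test says nothing about changes of the size seen here. Probes were kept apart. The offset shrinks differences of dim probes. The number of arrays limits precision, with a median SE of 0.096 for a translation factor probe. Symbols came from the platform annotation, and promoter sequences from RefSeq.

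Named genes (23) were those with a probe that passed, those whose probes had opposite signs, each with an unadjusted p under 0.05, and, for each role, the 3 with the smallest p and the 1 with the brightest probe, with undetected genes given by symbol. From the regulator list the rule took probes that passed, or else the 3 with the smallest p, and Mtor, Paip2b and Eif4ebp2 were added after their values were seen, as were other translation factors given with values (Eif2b1, Eif2s3x, Eif2d, Eif4e, Eif5a, Eef1akmt1, Eef2k, Eef2kmt, Etf1, Pelo). The members, lists and rules were chosen with earlier results of these data known. Alternatives covered background, normalisation, filter, variance model, array weights, probe summary, the replicate block and each array left out.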

Additional observations from a re-analysis of the deposited data

How the results depend on the processing

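All alternatives were planned. The 2 translation factor calls among 98 probes became 11 without background correction (1110 over all tested probes, against 264 as reported), 10 from the authors' intensities (1157), 12 when a robust variance trend was fitted (1095) and 6 of 89 with detection at 0.01 on all arrays (554). They became 1 of 127 without a filter on dim probes (113 over all probes) and 1 of 53 with probes averaged (102). With a median shift they became 0 (37), and 15 translation factor probes had an unadjusted p under 0.05, beside 3286 of all tested probes. With 1 array left out the calls became 0 to 0 (7 to 14). The brightest probe of each gene kept 2 calls (106 over all genes). Fewer arrays, or another number of probes, enter some of these fits, and otherwise the cause was not tested. Same-numbered arrays showed no large shared deviation (correlations 0.0018 to 0.020, beside -0.050 to 0.033 between arrays of different number). This cannot tell whether same-numbered arrays came from the same culture or sort, which the labels do not state. With the replicate number as a block 0 translation factor probes passed, with 15 at an unadjusted p under 0.05 (2759 of all tested probes), and 6 of all probes passed. The median translation factor difference of -0.0095 was -0.15 with the median shift, where that of all tested probes was -0.13, 0.0044 with the authors' intensities and -0.026 to -0.0004 with 1 array left out. These differences changed sign. With the probes of a gene averaged Eif5 had 0.0098, and Eif4a2, at 0.38 on ILMN_2702215, had -0.0042. Eif2a had 0.0038 with the authors' intensities, 0.011 with array weights and -0.049 to 0.058 with 1 array left out. With 1 array left out the brightest probe of Eif4a2 had -0.12 to 0.0088 and Eif4h -0.14 to 0.023. With the median shift ILMN_2458030 of Eif4g2 had -0.020 and ILMN_2686044 of Eif5a -0.037. Dim probes are limited by their closeness to background.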
